A study of Mus musculus with 59 samples.

Results

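Neuronal excitability rests on the voltage-gated sodium and potassium channels, and 32 of the 19613 genes measured in this series code for their subunits. The members were taken by symbol: every gene named Scn followed by a number and the letter a or b, and every gene named Kcn followed by a, b, c, d or q and a number. They comprise 13 sodium channel genes, of which 9 code for the pore-forming alpha subunits and 4 for the auxiliary beta subunits, and 19 potassium channel genes, which fall into the Kv1 family (7 Kcna genes), the Kv2 family (1 gene), the Kv3 family (4 Kcnc genes), the Kv4 family (2 Kcnd genes) and the Kv7 family (5 Kcnq genes). Scn2a, a principal sodium channel of excitatory neurons, is listed under its old symbol Scn2a1 and so falls outside the rule, and Kcnd2 and Kcna10 were not analysed here.

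Embryoid bodies (EBs), clusters of cells differentiated from mouse embryonic stem cells, served as an indicator of what blood serum carries. They were made from the HBG3 line, whose HB9-eGFP reporter labels motor neurons, and spinal motor neurons were only part of their cells. The EBs were exposed for 24 h to serum of male pre-symptomatic mice hemizygous for a mutant human SOD1 transgene, a model of amyotrophic lateral sclerosis (carrier serum, 29 arrays), or of their littermates without the transgene (non-carrier serum, 30 arrays). All donor mice were F1 progeny of C57BL/6 and SJL, the labels give a time point of 9 weeks for 53 arrays and 10 weeks for 6, which may be the age of the donors, since the study's methods put them near it, and RNA of the EBs was hybridised to Affymetrix mouse exon arrays. The comparison asks whether the channel transcripts of the exposed cells differed with the kind of serum.

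Sodium channels open within a fraction of a millisecond of depolarisation and carry the upstroke of the action potential, while beta subunits set their gating and placement. Potassium channels then repolarise the membrane: Kv1 channels open near threshold along the axon, Kv2 channels are slow delayed rectifiers of the cell body, Kv3 channels allow fast firing, Kv4 channels carry a transient current in dendrites, and neuronal Kv7 channels carry the M-current that restrains repetitive firing. In motor neurons these channels set the threshold and the rate of firing, and changed motor neuron excitability is a known feature of amyotrophic lateral sclerosis.

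The arrays measured transcripts and hold no reading at the promoters of these genes, but the sequence before the start site gives the members a place in the genome. The 150 bases before the annotated start are shown for 4 of the 8 members with the lowest p for serum and for Kcnd3, whose share of variance between runs of the experiment was the second highest of the members. They run 5′ to 3′ on the gene's strand and are taken from RefSeq on GRCm38.p6, with each CpG dinucleotide in capitals. Only windows outside the annotated gene are printed, which leaves out Scn9a, Kcnc1 and Kcnc2, and Scn3a had no promoter entry. Scn7a lies at chr2:66784911-66785060 and Scn11a at chr9:119825457-119825606, both on the minus strand. Kcna7 lies at chr7:45405810-45405959 on the plus strand, Kcnq5 at chr1:21962651-21962800 on the minus strand and Kcnd3 at chr3:105451740-105451889 on the plus strand.
Scn7a: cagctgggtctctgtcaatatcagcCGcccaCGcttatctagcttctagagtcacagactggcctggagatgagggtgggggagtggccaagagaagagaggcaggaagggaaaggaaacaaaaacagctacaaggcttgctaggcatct
Scn11a: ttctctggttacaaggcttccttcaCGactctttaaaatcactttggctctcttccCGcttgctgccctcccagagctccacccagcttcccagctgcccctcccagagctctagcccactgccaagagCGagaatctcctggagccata
Kcna7: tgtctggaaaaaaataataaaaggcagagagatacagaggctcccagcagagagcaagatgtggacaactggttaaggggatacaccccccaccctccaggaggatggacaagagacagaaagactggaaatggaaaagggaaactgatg
Kcnq5: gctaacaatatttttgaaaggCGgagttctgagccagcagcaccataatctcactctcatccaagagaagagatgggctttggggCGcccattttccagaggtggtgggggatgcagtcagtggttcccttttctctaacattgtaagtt
Kcnd3: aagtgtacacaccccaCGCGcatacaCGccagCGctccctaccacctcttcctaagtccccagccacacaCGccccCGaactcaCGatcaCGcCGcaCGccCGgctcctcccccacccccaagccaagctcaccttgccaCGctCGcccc

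The Kcna7 window held no CpG and the Kcnd3 window held 13, a count reached by 20.5% of all 27025 promoters of the same length. The windows of Scn7a and Kcnq5 held 2 CpG each and that of Scn11a held 3, counts reached by 70.5% and 59.3% of promoters. A promoter entry was found for 20 of the 32 members, with a median of 4.5 CpG against 4 over all promoters and a range from 0 for Kcna7 to 23 for Kcna3. These counts use the first entry of each symbol and include windows that overlap the annotated gene. The motif searched was CG, which reads the same on both strands, and its count is a description of the sequence.

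Values are log2 intensities, on which a difference of 1 is a doubling, and each gene's value is the mean over its exons. The brightness of an exon also depends on its probes, so levels are given as ranges and not as an order of transcript abundance between genes. As a reference for dim genes, the 1021 olfactory receptor genes, whose products belong to the nose, had a median level of 4.54 and a 95th percentile of 6.31. Of the 32 channel genes, 25 lay above that percentile and 7 at or below it. EBs are a mixture of cells, so a difference between arrays can come from fewer cells of a type or from less RNA per cell, and these cannot be told apart.

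Among the sodium channel alpha subunits, Scn3a, the form typical of embryonic neurons, had a mean level of 9.54, and Scn8a, the main channel of the axon initial segment and the nodes of Ranvier in mature neurons, had 8.60. Scn9a, which amplifies slow depolarisations in sensory and sympathetic neurons, had a level of 8.39 and Scn1a, a channel of inhibitory interneurons, 7.17. The channel of skeletal muscle, Scn4a, was at 6.33, next to the bound of the olfactory receptor genes. Of the tetrodotoxin-resistant channels of pain-sensing neurons, Scn10a had a level of 6.73 and Scn11a of 5.23, below the bound. Scn7a, an atypical member that senses the sodium concentration and is not opened by voltage in the usual way, was the dimmest of the 32 at 4.39. Among the beta subunits, Scn3b had a level of 10.87 and Scn4b, which supplies the blocking particle of the resurgent current, had 5.34, with Scn2b at 6.99.

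Among the potassium channels, the Kv3 genes Kcnc1, Kcnc2 and Kcnc4 lay between 7.23 and 7.51. Kcnq3, a subunit of the channel of the M-current, had a level of 7.74. Kcnq1, the channel of heart and epithelia, was at 6.06, below the bound. The Kv1 genes spanned 5.50 to 8.11, with Kcna4, Kcna5 and Kcna7 below the bound and Kcna1 and Kcna2, the subunits of the juxtaparanodal axon, at 6.99 and 7.48. The Kv4 genes Kcnd1 and Kcnd3 had levels of 7.10 and 8.54. The plot of levels gives the spread of 26 genes over the 59 arrays.

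**Figure D1:**
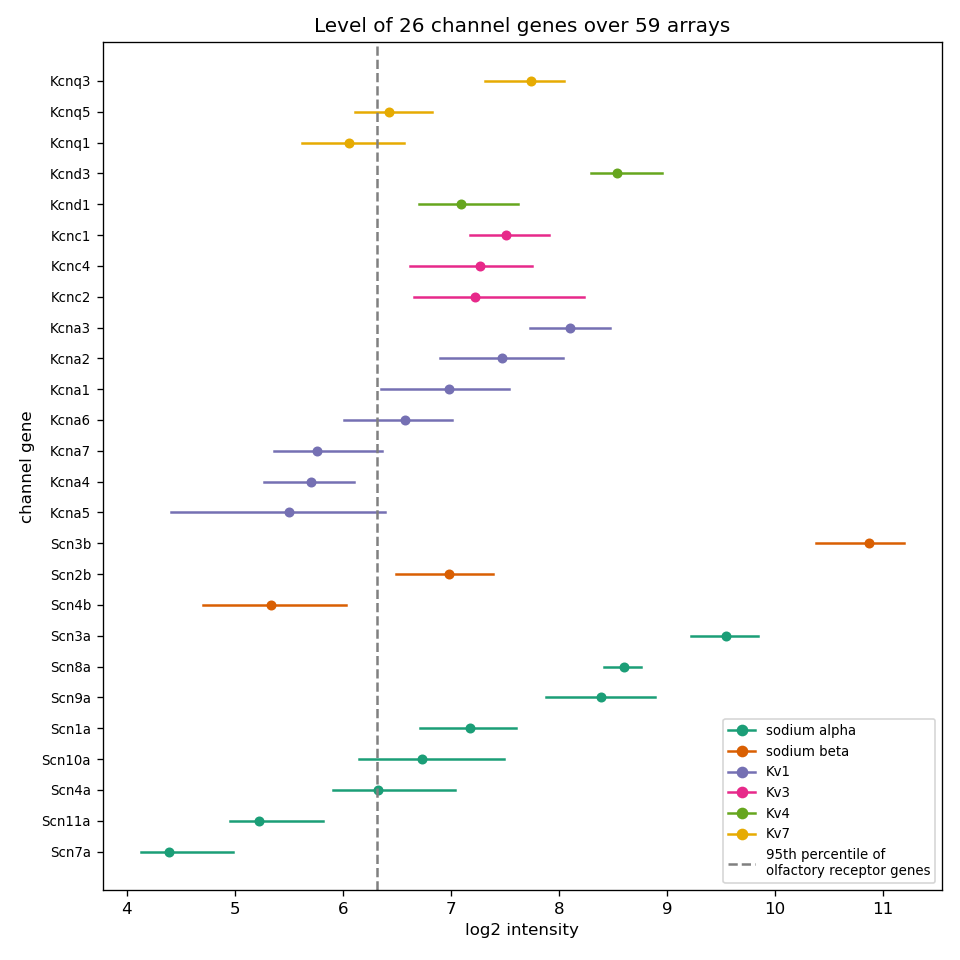
Log2 intensity of 26 of the 32 channel genes over the 59 arrays, grouped by family: the point is the mean and the bar runs from the lowest to the highest array. The dashed line marks 6.31, the 95th percentile of the olfactory receptor genes, and 7 genes have their mean at or below it.

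The labelled tissue was checked against marker genes. All 6 measured motor neuron markers, from Slc5a7 at 8.62 to 10.51, and all 9 measured pan-neuronal genes, from Nefh at 8.74 to Stmn2 at 12.62, lay above the olfactory bound of 6.31. All 6 progenitor genes did so too, at 8.51 to 12.95, whereas 2 of 5 muscle genes, 2 of 3 astrocyte genes, 3 of 4 oligodendrocyte-lineage genes, 1 of 2 pluripotency genes, and neither of the endothelial genes Cdh5 and Pecam1 did. The array medians spanned 151 to 183 intensity units with carrier serum and 153 to 177 with non-carrier serum, and no array held the same values as another. The labels describe the serum of a carrier array as that of a mouse and the study counted its serum samples by mouse, but no donor is identified by array and arrays of a batch shared a preparation of EBs, so p-values measure the spread between these arrays.

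The arrays were grouped by their titles into 9 runs of the experiment, each with both kinds of serum. There were the motorneuron run (3 carrier and 4 non-carrier arrays), the HB9MNs run (2 and 2), and the runs A, B, E and F and the 10-week run (3 and 3 each). The others were the run C (6 and 5) and the run D (3 and 4). The labels name no batch, and runs A to F were inferred only from ranges of numbers in the titles. All arrays labelled 10 weeks make up a single run, so the time point and the run cannot be told apart. Serum was therefore compared within runs, with the run as a block.

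No channel gene passed the test for serum. The adjusted p of the 32 members, from limma over all genes with the run as a block, ranged from 0.0599 for Scn9a to 0.993 for Scn3b, while 2.33% of all genes passed 0.05. At an unadjusted p under 0.05, 7 of the 32 members were counted, 6 of them higher and 1 lower with carrier serum, against backgrounds of 20.7% in all, 12% higher and 8.68% lower. The share of members, 21.9%, lies next to that of all genes. Standard errors ran from 0.016 for Scn8a and Kcnd3 to 0.0996 for Kcna5, and the 95% interval of the change lay between -0.1 and 0.1 for 17 members and between -0.2 and 0.2 for 29.

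Scn9a had the lowest p of the 32. Its level ran from 7.88 to 8.89 with a median of 8.44 with carrier serum and from 7.95 to 8.70 with a median of 8.30 with non-carrier serum. The 2 groups overlapped over nearly their whole range, but within 5 of the 9 runs (HB9MNs, A, D, E and the 10-week run) every carrier array lay above every non-carrier array. Such a separation was found in at least 5 runs for 0.296% of all genes. The cut of 5 runs is the count of Scn9a itself, which was picked by its p in these same arrays, so that share is no separate support. The change within runs was 0.13 (SE 0.040, 95% interval 0.051 to 0.21), with p = 0.0018 and an adjusted p of 0.0599 by limma. By run it was 0.27 in B, 0.24 in A, 0.22 in HB9MNs, 0.19 in the 10-week run, 0.14 in E and in motorneuron, 0.13 in D, 0.010 in C and -0.033 in F. The carrier arrays of run C held both the lowest value of Scn9a, 7.88, and one of 8.71, so that this run alone covered most of the range. With run C left out the change was 0.16 and the adjusted p by limma 9.43e-04, in a fit that called 8.16% of all genes. The side of the threshold on which Scn9a lies depended on that run and also on scaling, gene filters and array weights. Of 25 alternatives it passed in 6. With run C kept, its adjusted p by limma was 0.0371 with quantile normalization and 0.00335 with array weights.

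Scn7a had the next lowest p, at a level below the olfactory bound. With carrier serum it ran from 4.14 to 4.98 with a median of 4.40, and with non-carrier serum from 4.13 to 4.69 with a median of 4.33. Run E stood apart in the size of the change, since its 3 carrier arrays lay at 4.80 to 4.98 and the 3 non-carrier arrays at 4.37 to 4.39, a separation in that run that 3.01% of all genes also had. The change was 0.096 (SE 0.030, adjusted p = 0.0674 by limma) over all runs, 0.51 in run E alone and 0.049 with an adjusted p of 0.277 without run E. By run it was next largest in F (0.16) and A (0.13) and was negative in HB9MNs (-0.075) and the 10-week run (-0.019). A test of whether the change differed between runs gave p = 8.4e-05 and an adjusted p of 0.0566 over all genes by limma, where 0.127% of genes passed 0.05 and no member did. At an unadjusted p under 0.05 this test took 2 members, Scn7a and Kcna5, against 7.94% of all genes.

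Scn9a and Scn7a belong to a cluster of sodium channel genes on chromosome 2. In RefSeq order the cluster reads Scn3a, Scn2a, Scn1a, Scn9a and Scn7a, and the changes were 0.060, 0.0055 (listed as Scn2a1), 0.0059, 0.13 and 0.096, with no test of the differences between genes. Scn3a spanned 9.31 to 9.84 with a median of 9.61 with carrier serum and 9.23 to 9.80 with a median of 9.52 with non-carrier serum, and the groups overlapped. Its change of 0.060 (SE 0.023, adjusted p = 0.143 by limma) was positive in 7 of 9 runs.

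Scn11a, which sets the resting potential of pain-sensing neurons, was the member with a positive change in all 9 runs, as 0.653% of all genes had (1.11% had a negative change in all 9, and 1.76% either). Its levels of 4.96 to 5.81 with carrier serum (median 5.26) and 4.96 to 5.55 with non-carrier serum (median 5.18) overlapped, and the change was 0.080 (SE 0.029, adjusted p = 0.120 by limma). Scn10a, its neighbour on chromosome 9, had a change of 0.019 with an adjusted p of 0.782. Scn8a, at 8.42 to 8.75 with carrier and 8.45 to 8.76 with non-carrier serum, had the interval -0.045 to 0.020 around a change of -0.012. Of the beta subunits, Scn3b had a change of 0.0004 with an interval of -0.037 to 0.037.

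Kcnc1, a Kv3 channel that lets neurons fire fast, was the member below an unadjusted p of 0.05 with a negative change. It ran from 7.18 to 7.84 with a median of 7.48 with carrier serum and from 7.21 to 7.91 with a median of 7.52 with non-carrier serum. The groups overlapped. The change was -0.055 (SE 0.022, 95% interval -0.098 to -0.011, adjusted p = 0.149 by limma) and was negative in 7 of 9 runs. Its relative Kcnc2 had a change of the other sign, with levels from 6.66 to 8.23 with carrier (median 7.22) and 6.67 to 8.17 with non-carrier serum (median 7.04), with a change of 0.099 (SE 0.051, adjusted p = 0.253).

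Of the Kv1 genes, Kcna7, known from heart and skeletal muscle, ran from 5.37 to 6.37 with carrier serum (median 5.76) and from 5.39 to 6.24 with non-carrier serum (median 5.67), with a change of 0.11 (SE 0.042, adjusted p = 0.138 by limma). Kcna5, a channel of the atrium and of vascular muscle, had the widest interval of all members, -0.038 to 0.36 around a change of 0.16, and its levels below the olfactory bound spread by 0.35 (SD within run and serum). The changes of Kcna1, Kcna2 and Kcna3 were each 0.054, with adjusted p-values of 0.416, 0.287 and 0.327, and Kcna4 and Kcna6 had changes of 0.0015 and 0.0018. Among the Kv7 genes Kcnq5, which contributes to the M-current in the brain, ran from 6.11 to 6.83 with carrier serum (median 6.46) and from 6.17 to 6.63 with non-carrier serum (median 6.40), and the groups overlapped. Its change was 0.064 (SE 0.030, adjusted p = 0.219 by limma), and Kcnq3 had a change of 0.024.

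**Figure D2:**
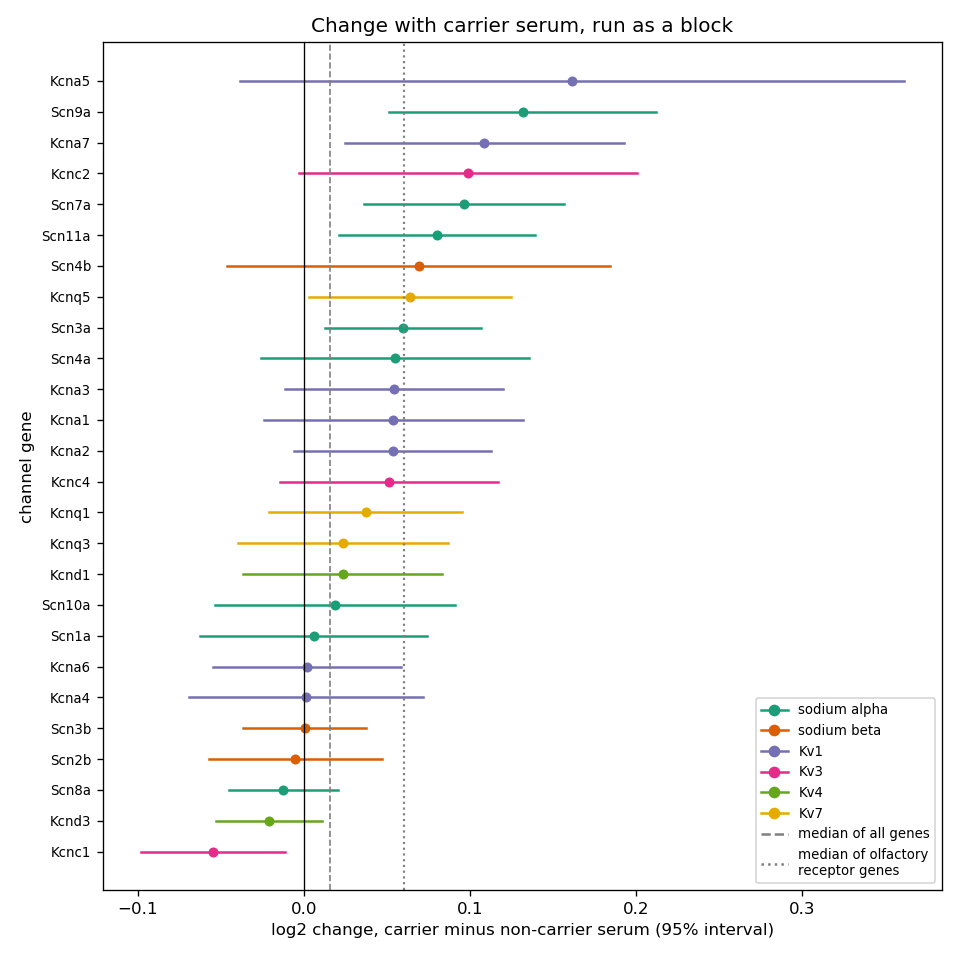
Change of 26 channel genes with carrier serum, as carrier minus non-carrier log2 intensity with the run as a block; points are estimates, bars 95% intervals, and the dashed and dotted lines mark the medians of all genes (0.016) and of olfactory receptor genes (0.060). None passed an adjusted p of 0.05, Scn9a came nearest with 0.0599, and Kcna5 had the widest interval.

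Most of the members lay slightly above 0. The change was positive for 25 of the 32 (78.1%) against 61.1% of all genes, with a median of 0.027 against 0.016. By family it was positive for 8 of 9 sodium alpha genes, 2 of 4 beta genes, 7 of 7 Kv1 genes, 2 of 4 Kv3 genes, 1 of 2 Kv4 genes and 5 of 5 Kv7 genes. The median change was 0.080 over the 7 members at or below the olfactory bound, where the olfactory receptor genes themselves had a median change of 0.060, positive in 80.1%. Over the 25 members above the bound it was 0.023, positive for 18, against a median of -0.0011 and 48.9% positive over all genes above the bound. With each array centred on its median the change was positive for 20 members (7 sodium alpha, 5 Kv1 and 4 Kv7 genes), with quantile normalization for 22 (7, 5 and 3), and with the olfactory receptor genes' array median as a covariate, an alternative chosen after the data were seen, for 18, against 56%, 51.3% and 48% of all genes. The part of the dim genes' shift in the members' changes was not tested beyond these fits. In at least 1 alternative the sign turned for 19 members, among them Scn1a, Scn8a, Scn10a, Scn3b, Kcna4, Kcna6 and Kcnd3, whose changes lay near 0. It stayed for 13, among them the 8 with the lowest p, which were picked by that p in the same arrays.

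**Figure D3:**
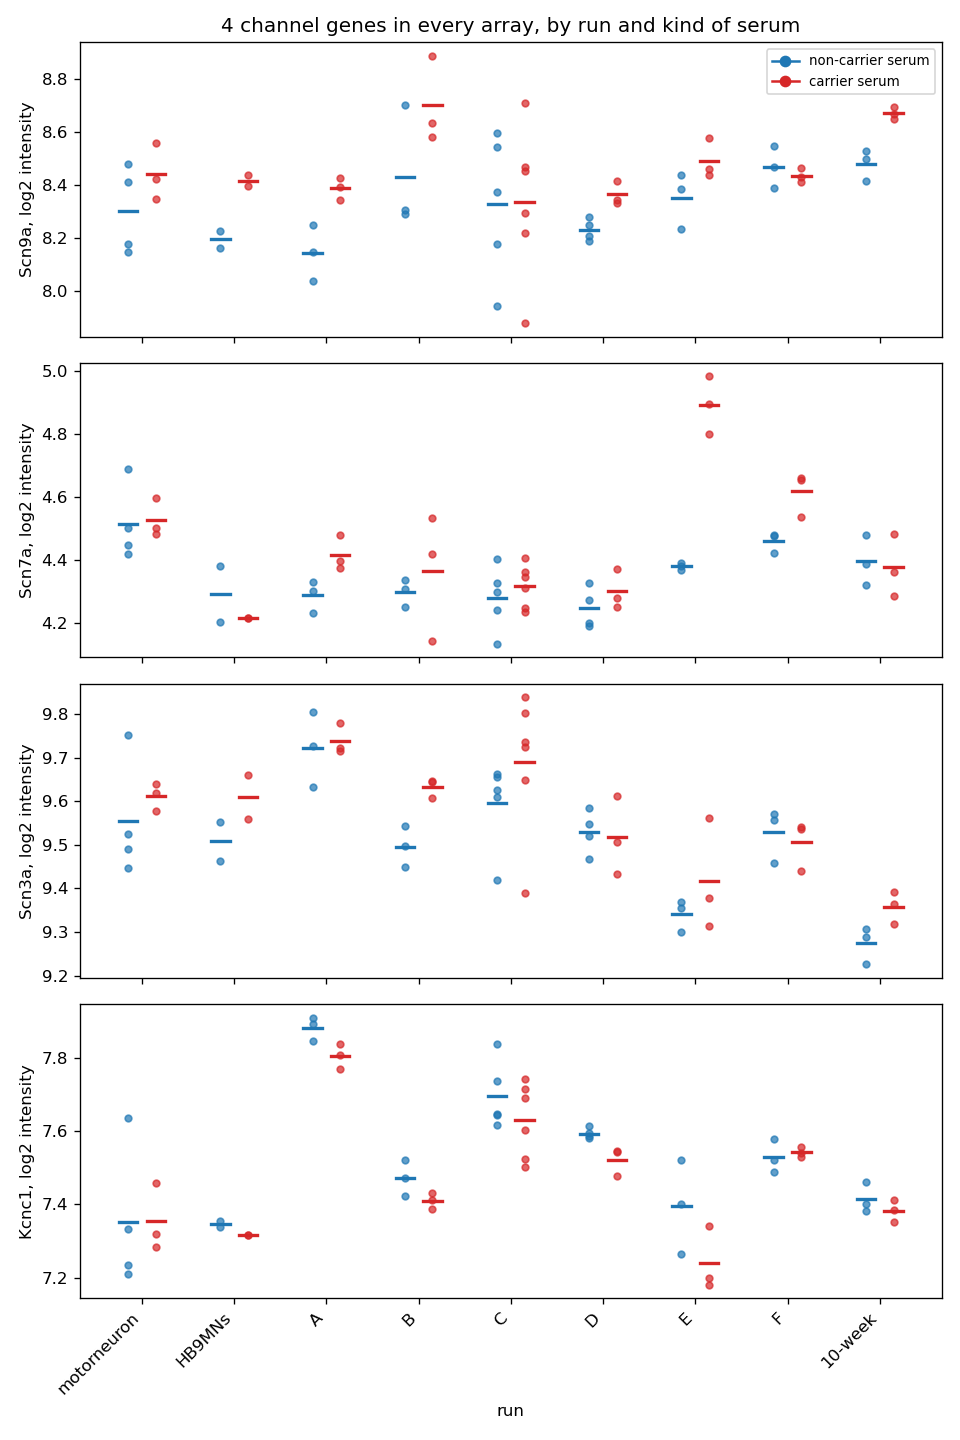
Log2 intensity of Scn9a, Scn7a, Scn3a and Kcnc1 in each of the 59 arrays, by run and kind of serum; dots are arrays and short lines are means. The carrier arrays of Scn7a stand apart in run E (4.80 to 4.98 against 4.37 to 4.39). Those of Scn9a lie above the non-carrier arrays in 5 of 9 runs, a separation in at least 5 runs that 0.296% of all genes had. For Kcnc1, as for all 32 members, the run means spanned more than the change with serum.

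Genes that work with these channels or are related to them were read from lists. None of the 9 measured modulatory Kv alpha subunits, which form no channel alone but alter Kv2 channels, passed the test. All 9 had positive changes with a median of 0.058, and 6 of them lay above the olfactory bound. Positive changes were found for 61.1% of all genes and for 80.1% of olfactory receptor genes, whose median was 0.060. Of 13 auxiliary Kv subunits, Dpp6, which speeds the gating of Kv4 channels, passed and was lower with carrier serum, by a change of -0.063 (SE 0.017, adjusted p = 0.0279 by limma, lower in 8 of 9 runs). Of 7 genes of the related EAG family, Kcnh1 passed and was higher, with a change of 0.11 (SE 0.026, adjusted p = 0.0199) and the same sign in 9 of 9 runs. Against these counts stand backgrounds of 1.65% of all genes lower and 0.683% higher. None of the 3 further genes listed with the sodium channels passed: Scn2a1, itself a sodium channel, Nalcn and Fgf11. None of the 5 scaffold genes of the initial segment and node, which include Ank3 and Nfasc, passed. Rest, the repressor of many neuronal genes, had a change of 0.0042 with an adjusted p of 0.926 by limma.

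Some neuronal markers passed the same test. Of 9 pan-neuronal genes 4 were higher with carrier serum, against 0.683% of all genes: Snap25, a protein of synaptic vesicle fusion, by 0.074 (adjusted p = 0.0166), the neurofilament genes Nefl by 0.058 (adjusted p = 0.0250) and Nefh by 0.089 (adjusted p = 0.0374), and Stmn2, a regulator of axonal microtubules, by 0.061 (adjusted p = 0.0400, all by limma). The other 5 did not pass, with changes of 0.020 for Nefm, 0.014 for Elavl4, -0.011 for Elavl3, -0.028 for Tubb3 and -0.063 for Rbfox3, and the median of the list was 0.020. The summed level of the list, as a sum of linear intensities over the 9 genes, ran from 27533 to 32974 with carrier and from 25623 to 31642 with non-carrier serum. Of 6 motor neuron markers Slc5a7, the choline transporter, passed and was higher by 0.15 (SE 0.042, adjusted p = 0.0410). The other 5 did not pass. Isl1 had a change of 0.053, whereas Lhx3 had -0.086, Olig2 -0.085, Mnx1 -0.035 and Chat -0.023. The median of the list was -0.029. The summed level of the list ran from 3139 to 4478 and from 3369 to 4374. None of the 6 progenitor, 3 astrocyte, 4 oligodendrocyte-lineage, 5 muscle, 2 pluripotency, 2 endothelial genes or the erythroid gene Gata1 passed. The part of these markers in the members' changes was not tested.

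All members differed between runs, as most genes did. Each of the 32 passed the test for the run, as 94% of all genes did, with adjusted p-values of at most 0.00916 (Kcna5, by limma). With quantile normalization 29 passed, and the 3 that did not, Kcna5, Scn11a and Scn4b, lie below the olfactory bound. The median share of a member's log2 variance that lay between runs was 64.2%, against 62.5% over all genes. The median distance between the highest and the lowest run mean was 0.50 for the members and 0.53 for all genes. By family the median share was 77.1% for Kv7, 76.3% for Kv4, 76.0% for the sodium beta genes, 69.0% for Kv3, 65.6% for sodium alpha and 56.1% for Kv1.

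Scn3b had the highest share, 92.2%, with run means from 11.08 in the motorneuron run to 10.50 in run F and also 10.50 in the 10-week run. Kcnd3 followed with 89.7%, from 8.84 in the motorneuron run to 8.34 in run E. Scn10a had 82.9%, from 7.31 in the motorneuron run to 6.33 in run E, and Kcna6, a Kv1 subunit of peripheral and spinal axons, had 82.3% and ran the other way, from 6.90 in run A to 6.18 in the motorneuron run. Within run and serum Scn3b spread by an SD of 0.07, well under the distance of 0.58 between its highest and lowest run means.

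The lowest shares belonged to Kcna5 (30.1%), Scn9a (31.2%), Scn4b (35.7%) and Kcnq5 (44.5%), of which Kcna5 and Scn4b lie below the olfactory bound. Over the olfactory receptor genes the median share was 30.7%. Scn9a had a level of 8.39, above that bound, and its run means spanned 8.27 (run A) to 8.58 (the 10-week run), with an SD of 0.16 within run and serum. Within the families named here the widest distances were 1.18 for Kcnc2 (7.91 in motorneuron, 6.73 in E), 0.98 for Scn10a, 0.82 for Kcna5, 0.77 for Kcnq1 (6.49 in motorneuron, 5.72 in E) and 0.55 for Kcnd1.

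The runs in which members were highest and lowest were not spread evenly. The motorneuron run held the highest mean of 17 members (53.1%) against 48.9% of all genes, and run A that of 10 (31.2%) against 6.44%. Those highest in run A included the sodium channel genes Scn1a, Scn3a and Scn8a and the potassium channel genes Kcna4, Kcna6, Kcnc1 and Kcnq3. Run E held the lowest mean of 17 members (53.1%) against 30.8% of all genes. These shares are descriptions, since genes of the same arrays are not independent and no test of the difference was made.

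**Figure D4:**
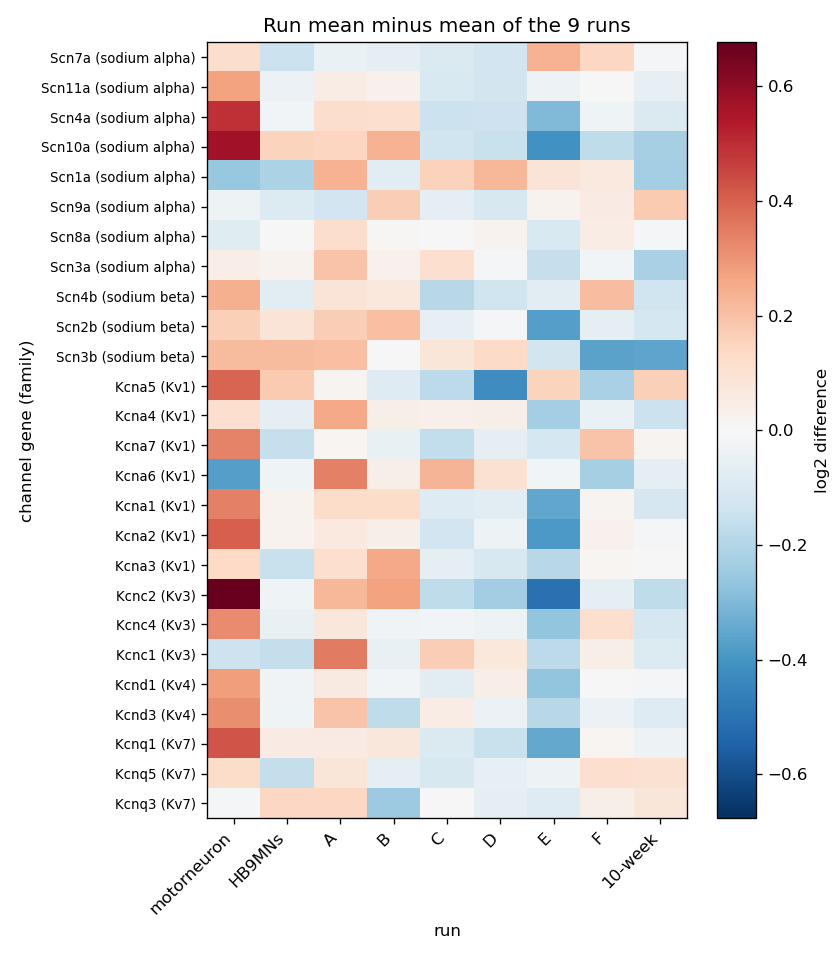
Mean log2 intensity of 26 channel genes in each of 9 runs minus the mean of the gene's 9 run means, with the family in brackets; red is higher and blue is lower. The motorneuron column holds the highest mean of 15 of the 26 genes drawn and the lowest of Scn1a and Kcna6, column A holds the highest mean of 7, and column E the lowest of 14.

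The markers of motor neurons and of other cells also differed between runs. Olig2, a factor of motor neuron progenitors, had its lowest run mean, 8.36, in the 10-week run and its highest, 9.13, in the motorneuron run, and Chat, the enzyme of acetylcholine synthesis, from 8.73 in run A to 9.54 in the motorneuron run. Mnx1 (HB9) ran from 8.66 in run A to 9.07 in run F, Isl1 from 10.32 in run A to 10.77 in HB9MNs and Lhx3 from 8.82 in run E to 9.27 in run C, while Tubb3, a tubulin of all neurons, lay between 12.26 and 12.49. Other pan-neuronal genes spread further, such as Nefm from 10.96 in run A to 11.59 in HB9MNs. Some progenitor, astrocyte and endothelial markers, picked here after their values were seen, spread further still. In these lists Vim (0.21), Hes5 (0.24), Mki67 (0.51) and Pecam1 (0.61) had smaller distances between run means than Nefm (0.63). Hes5 did not pass the test for the run (adjusted p = 0.130 by limma). The progenitor factor Sox2 ran from 9.96 in the motorneuron run to 11.00 in the 10-week arrays, Top2a of dividing cells from 8.89 in the motorneuron run to 9.97 in run E, the astrocyte gene Aldh1l1 from 6.63 in the motorneuron run to 7.79 in run A, and the endothelial gene Cdh5 from 5.61 in run C to 6.99 in the 10-week arrays. The dim reference moved too: the median of the olfactory receptor genes was 4.84 in the motorneuron run and 4.43 to 4.59 in the other runs. Runs A and E, which held the highest means of 10 and the lowest means of 17 members, had olfactory medians of 4.57 and 4.56. With the motorneuron run left out the members' median share was 54.5% and with run C left out 71.1%. The part of cell makeup and of dim signal in the differences between runs was not tested.

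The count of members past the threshold for serum differed most from 0 when motor neuron genes entered the fit. This fit kept the run and added the levels of Lhx3, Isl1, Mnx1 and Olig2, the motor neuron genes with which the study corrected between its batches. In it 15 of the 32 members passed (46.9%), all of them higher with carrier serum. Of all genes 31.2% passed in either direction, a share that was not split into higher and lower. The 15 members included Scn4a, Scn7a, Scn11a, Scn4b, Kcna1, Kcna2, Kcna3, Kcna7, Kcnc2, Kcnd1, Kcnq1 and Kcnq5, and Scn9a was not among them. In that fit Kcnc2 had a change of 0.26 (adjusted p = 3.16e-04), Kcna7 of 0.20 (adjusted p = 5.32e-04) and Scn11a of 0.14 (adjusted p = 0.00116 by limma). The median change was 0.083 over the members, 0.030 over all genes and 0.074 over the olfactory receptor genes. Scn7a, Scn11a, Scn4b, Kcna7 and Kcnq1 lie below the olfactory bound. The added genes come from the same exposed cells and had changes of -0.086 (Lhx3), 0.053 (Isl1), -0.035 (Mnx1) and -0.085 (Olig2) with serum. The study fitted its own correction on assays with non-carrier serum.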

How the data were processed

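Gene intensities of 59 Affymetrix mouse exon arrays were analysed. The authors made the deposited intensity values with RMA (Affymetrix Expression Console is named in the submitters' processing notes), took the mean of all exons of a gene and removed outlying arrays beforehand. Whether exons were averaged on a log scale and the genome build are not given in the sources used here. Log2 values were taken with 0 added and no gene was filtered out.

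Groups came from the labels. The 9 runs were read from the titles, by a shared name or by neighbouring numbers, and run C, with 11 arrays, exceeds the batch size the study's methods give and may hold more than 1 batch. Linear models with a term for serum and a block for the run were fitted in R 4.3.3 (limma 3.58.1, moderated by eBayes), two-sided, and p-values were adjusted by the Benjamini-Hochberg method over all 19613 genes, with 0.05 as the threshold. The share of variance by run is the run's sum of squares over the total, in percent. Precision is limited by how many arrays there are. The members and lists were chosen with earlier results of these data known. Named members were the 8 with the lowest p for serum, and for the run the 4 highest and 4 lowest shares and the widest distance in each family. For 6 members, which enter every count and median, single values are not reported here. Of the lists, every gene past the threshold was named. Alternatives covered the block, batch and olfactory covariates, scaling, filters, a pseudocount of 16, eBayes settings, array weights and leaving out each run. Further fits used the 47 arrays without runs E and F, the 12 arrays of runs E and F alone, or left out arrays called by Grubbs' test within runs. That test called a non-carrier array of run C and a carrier array of run E. The procedure was tested on simulated data. Sequences are from RefSeq (GRCm38.p6), in which all 32 symbols matched and 12 had no promoter entry.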

Additional observations from a re-analysis of the deposited data

How the results depend on the processing

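Over 25 alternatives the count of members past an adjusted p of 0.05 for serum stayed at 0 in 17. It was 1 with run C parted in 2 blocks (Scn9a, adjusted p = 0.0143), 1 without genes below the median level (Scn9a, adjusted p = 0.0311), 1 without genes below the olfactory bound (Scn9a, adjusted p = 0.0406), 2 with quantile normalization (Scn3a and Scn9a), 7 with array weights (Scn3a, Scn7a, Scn9a, Scn11a, Kcna7, Kcnc1 and Kcnc2) and 15 with the 4 motor neuron genes as covariates. With 1 run left out it ranged from 0 to 4: 1 without HB9MNs (Scn7a, adjusted p = 0.0408) and 4 without run C (Scn7a, Scn9a, Scn11a and Kcna7). Over all genes these fits called 3.3% with run C parted, 6.68% and 4.65% with the 2 filters, 2.26% with quantile normalization, 14.3% with array weights, 31.2% with the covariates, 3.2% without HB9MNs and 8.16% without run C. The 2 filters test fewer genes, and the cause of the other shifts was not tested. The fit without a block called 0 genes by limma, with 2 members and 4.1% of all genes at an unadjusted p under 0.05. The 8 members with the lowest p kept the sign of their change in every alternative in which they were fitted (Scn7a, Scn11a and Kcna7 fall out under both filters, Kcnq5 and Kcnc2 under the filter at the median), 5 further members did so too, and 19 turned it in at least 1, 5 of them with centring and 9 with quantile normalization. The 8 were picked by low p in these same arrays, so their kept sign is no separate support. The 2 filters and the eBayes settings leave each estimate as it was and cannot turn a sign. The change of Scn9a ranged from 0.054, in the fit to the 12 arrays of runs E and F alone, to 0.16 without run C. Its adjusted p-values by limma ranged from 9.43e-04 without run C to 0.995 without a block. The count past the threshold for the run was 29 of 32 with quantile normalization (without Kcna5, Scn11a and Scn4b; 84% of all genes passed) and 31 without the motorneuron run (without Kcna5), without run D (without Kcna5, adjusted p = 0.0597) and without run E. The median share by run was 54.5% without the motorneuron run and 71.1% without run C.

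With the replicate block, by the number or letter in the titles of the motorneuron, HB9MNs and 10-week runs and by run elsewhere, the change of Scn9a was 0.14 with an adjusted p of 0.0553, and 0 members and 513 genes passed. Deviations of same-numbered arrays correlated at -0.13 to 0.33, so the numbers were not taken as pairs.

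The number of arrays limits precision, and members at or below the olfactory bound have little signal over background.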
